A study of Mus musculus with 2 samples.

Results

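The genes described here are 10 receptors and enzymes through which macrophages sense extracellular nucleotides, adenosine, fatty acids and ketone bodies. They were chosen by gene symbol: the adenosine receptors Adora2a, Adora2b and Adora3, the ATP-gated channels P2rx4 and P2rx7, the nucleotide receptor P2ry6, the ectonucleotidases Entpd1 and Nt5e, and the metabolite receptors Gpr84 and Hcar2. All 10 symbols were found once among 55536 annotated genes. The RNA came from whole-cell extracts of C57BL/6J mouse bone marrow-derived macrophages, which are grown from marrow progenitors in culture, and it was polyA-selected before sequencing. By the description in the labels, the cells received 100 ng/ml Lipid A, the lipid part of bacterial lipopolysaccharide, for 12 h, went without it for another 12 h, and received 100 ng/ml once more for 300 min. A separate field for the treatment has lipoprotein A in place of Lipid A, and which term holds cannot be told from the labels. Both biological replicates belong to this 1 group and carry the same donor identifier, and the age and sex of the animals are recorded as not collected. No untreated or singly stimulated sample was analysed here, so no gene was tested for a response to Lipid A.

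ATP released by stressed or dying cells opens P2X channels and, with ADP and UDP, activates P2Y receptors, which are coupled to G proteins. Ectonucleotidases on the cell surface then remove phosphates stepwise: Entpd1 (CD39) converts ATP and ADP to AMP, and Nt5e (CD73) converts AMP to adenosine. Adenosine acts on several receptors, and in macrophages those that raise cyclic AMP, Adora2a and Adora2b, can restrain inflammatory cytokines. Gpr84 responds to medium-chain fatty acids and Hcar2 to beta-hydroxybutyrate and niacin.

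After rounding, replicate 1 held 50503160 expected counts and replicate 2 held 46342327. Macrophage markers were abundant: all 10 listed markers, Lyz2 and Adgre1 among them, reached 10 TPM (a transcript level scaled for transcript length and library depth) in both libraries, and their median was 525 TPM. Markers of other cells, summed in replicates 1 and 2, came to 0.5 and 0.64 TPM for the mast cell and basophil list, 3.02 and 2.71 TPM for the B cell list and 5.9 and 3.53 TPM for the dendritic cell list. The fibroblast list summed to 2.36 and 2.46 TPM and the erythroid and megakaryocyte list to 0.71 and 0.55 TPM. The neutrophil list summed to 62.9 TPM in replicate 1 but 4.4 TPM in replicate 2, with Ly6g and Retnlg at 0 counts. Nearly all of the sum in replicate 1 was S100a9, at 37.9 and 2.23 TPM, and S100a8, at 23.1 and 1.57 TPM. Ltf, the next highest in replicate 1, was at 1.03 and 0.01 TPM. The endothelial list summed to 15.7 and 49.4 TPM, led by Kdr. The T and NK cell list summed to 56.2 and 50.7 TPM, nearly all of it Cd4 and Cd28, and 6 of its 8 members stayed under 1 TPM in both libraries. What part such cells had in the values below was not tested.

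P2rx4 stood far above the other 9 genes, and Nt5e was practically unread. Of the 10 genes, 6 reached 10 TPM in both libraries, as did 27.3% of 22028 protein-coding genes. The median over the 10 genes was 26.6 TPM, while it was 0.29 TPM over protein-coding genes. In descending order of mean level came P2rx4, P2ry6, Entpd1, Gpr84, Adora2a, P2rx7, Hcar2, Adora2b, Adora3 and Nt5e. In these TPM values the libraries overlapped between the neighbours Entpd1 and Gpr84 and between Adora2b and Adora3. All other neighbours in this order had separate ranges, with P2ry6 and Entpd1 close together and Adora2a and P2rx7 close together. The lowest value of P2ry6 was 63.8 TPM and the highest of Entpd1 60.3 TPM, and their order depended on the quantification. The authors' posterior mean TPM was 74.1 and 62.1 for P2ry6 and 62.4 and 58.3 for Entpd1 in replicates 1 and 2, so the ranges overlapped. Another quantification by the authors, which estimated transcript levels directly from the reads and is called the second here, gave 72.0 and 60.4 TPM for P2ry6 and 67.7 and 65.5 TPM for Entpd1. There the ranges also overlapped, and the mean of Entpd1, at 66.6 TPM, was above that of P2ry6, at 66.2 TPM. The lowest value of Adora2a was 26.6 TPM and the highest of P2rx7 25.8 TPM.

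**Figure D1:**
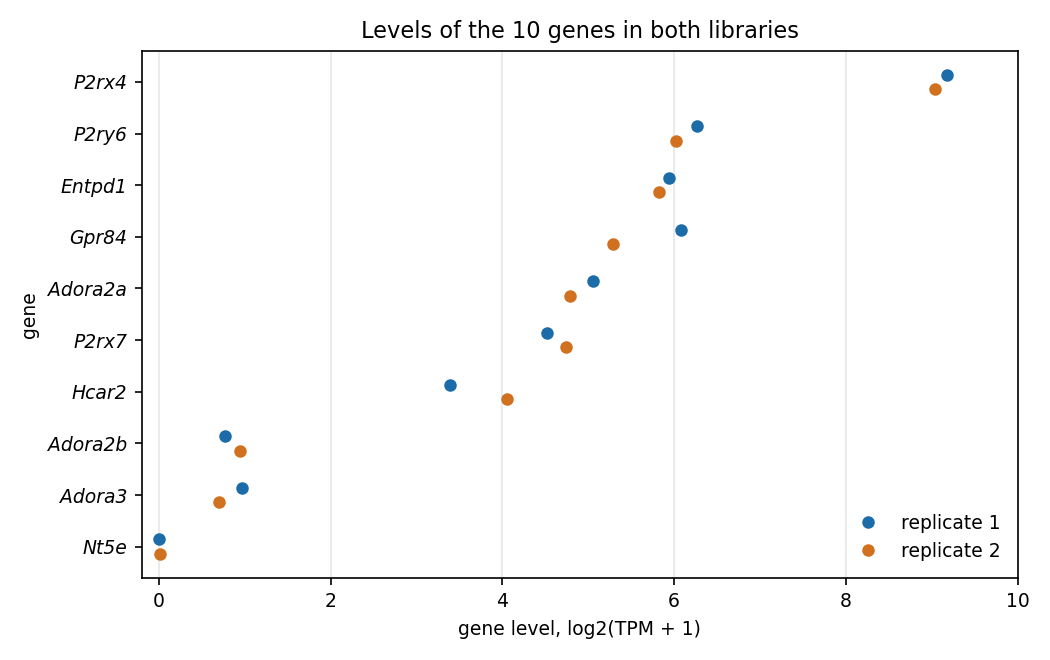
Gene levels as log2(TPM + 1) on the horizontal axis for the 10 genes on the vertical axis, with 1 point for each of the 2 libraries. P2rx4 lies alone at the top with 579 and 526 TPM, and Nt5e lies at 0 and 0.01 TPM.

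Adora2a carried nearly all of the adenosine receptor message. This receptor, which is coupled to the stimulatory G protein and raises cyclic AMP, lies on chromosome 10 (75316877 to 75334784, plus strand, mm10). Its level was 32.2 TPM from 2525 counts in replicate 1 and 26.6 TPM from 1796 counts in replicate 2. That was 94.8% ± 0.446 (SD, n = 2) of the summed TPM of the 4 adenosine receptor genes. Adora2b, the low-affinity receptor that also raises cyclic AMP (chromosome 11, 62248984 to 62266453, plus strand), was at 0.7 and 0.93 TPM, from 40 and 49 counts. Adora3, which is coupled to inhibitory G proteins (chromosome 3, 105870858 to 105908926, plus strand), was at 0.96 and 0.63 TPM, from 64 and 44 counts. Adora1, the remaining family member, had no count in either library.

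Within each library Adora2a exceeded Adora2b by 4.06 ± 0.32 in log2(TPM + 1) (SD, n = 2). Its level was 46-fold that of Adora2b in replicate 1 and 28.6-fold in replicate 2. Adora2b and Adora3 were not told apart, since Adora2b minus Adora3 was -0.21 in replicate 1 but 0.24 in replicate 2 on that scale. Adora3-201 held 75.8% and 100% of the Adora3 level. Annotated exons of Adora3 share 779 bases with those of Tmigd3 on the same strand, which had 2 and 3 counts, so reads of that stretch could belong to either gene. Adora2a-201, the 3-exon transcript with the complete coding sequence, held 91.6% and 85.4% of the Adora2a level. Most of the rest was Adora2a-203, an annotated fragment of 538 nt, at 2.51 and 3.89 TPM.

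**Figure D2:**
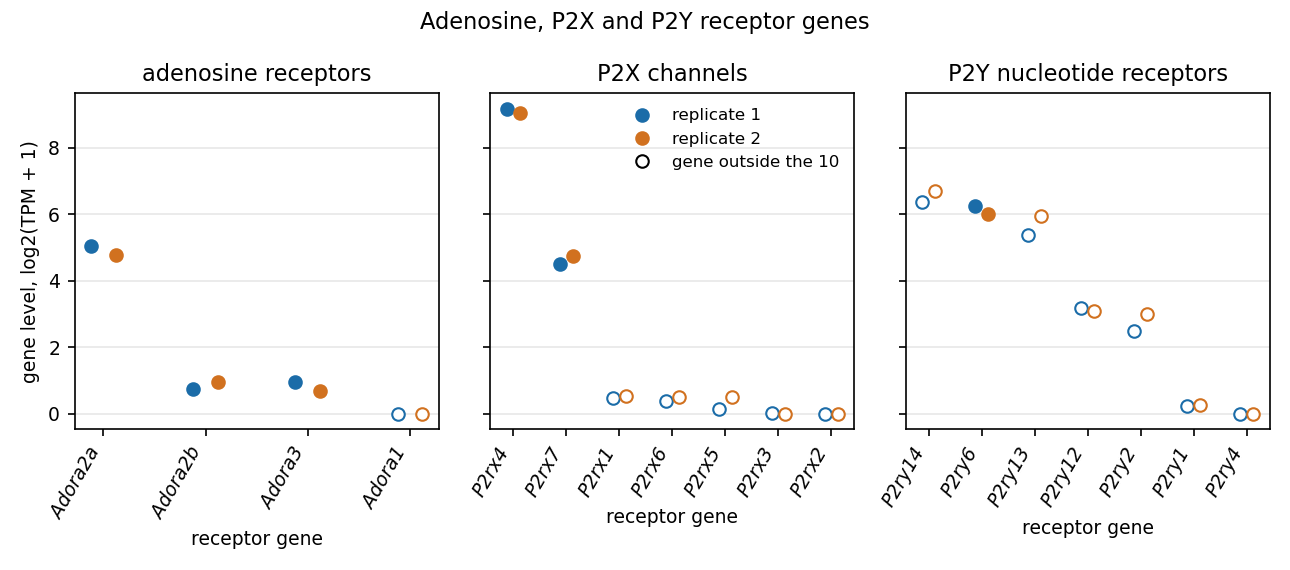
Gene levels as log2(TPM + 1) for 4 adenosine, 7 P2X and 7 nucleotide-binding P2Y receptor genes. Filled points are genes among the 10 and open points other genes, with 1 colour for each library. Adora2a and P2rx4 lead their families, while P2ry6 lies between P2ry14 and P2ry13.

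P2rx4 was the most abundant of the 10 genes. It encodes an ATP-gated cation channel that resides largely in lysosomes in macrophages, and lies on chromosome 5 (122707544 to 122729738, plus strand). Its level was 579 TPM from 34996 counts in replicate 1 and 526 TPM from 28426 counts in replicate 2. A mean of 553 ± 37.4 TPM (SD, n = 2) was above that of 98.9% of protein-coding genes. Its neighbour P2rx7 (122643911 to 122691432, plus strand) encodes the channel that needs high ATP, lets potassium leave the cell and can thereby trigger the NLRP3 inflammasome. P2rx7 stood at 21.9 and 25.8 TPM, from 2423 and 2498 counts. P2rx4 took 95.7% ± 0.796 and P2rx7 4.15% ± 0.729 of the summed TPM of the 7 P2X genes (SD, n = 2). P2rx4 exceeded P2rx7 by 4.48 ± 0.26 in log2(TPM + 1). The other 5 P2X genes stayed under 1 TPM in both libraries.

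Both channels were read as mixtures of forms. Of the P2rx4 transcripts, P2rx4-202 led with 49.0% and 46.6% of the gene's level, followed by P2rx4-201 with 28.1% and 26.6% and P2rx4-206 with 18.5% and 24.2%. Their coding sequences differ by 2 cassette exons whose lengths keep the reading frame. Their annotated ends differ too, with lengths of 2702 nt for P2rx4-201, 1887 nt for P2rx4-202 and 1111 nt for P2rx4-206. P2rx4-201 has 12 exons and 388 codons. P2rx4-202 lacks exon 6 of these, an exon of 81 nt or 27 codons at chr5:122724594-122724674. P2rx4-206 lacks exon 10, an exon of 66 nt or 22 codons at chr5:122727399-122727464. Both sequences, read from the GENCODE M21 transcript P2rx4-201 on the plus strand, are shown because they tell the coding sequences of these forms apart. Capitals mark the cassette exon and lower case the 15 coding bases on each side.
P2rx4 81-nt exon: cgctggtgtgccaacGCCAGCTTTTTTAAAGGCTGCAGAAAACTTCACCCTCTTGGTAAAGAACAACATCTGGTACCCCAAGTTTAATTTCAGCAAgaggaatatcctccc
P2rx4 66-nt exon: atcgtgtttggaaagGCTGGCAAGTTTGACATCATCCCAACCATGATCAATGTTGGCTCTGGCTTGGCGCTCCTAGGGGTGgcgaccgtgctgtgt

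Coding transcripts with the 81-nt exon summed to 270 and 267 TPM in replicates 1 and 2. Those without it summed to 284 and 245 TPM, so neither form was the higher in both libraries. The second quantification put the forms without this exon above those with it, at 363 against 261 TPM in replicate 1 and 325 against 254 TPM in replicate 2. Coding transcripts without the 66-nt exon held 18.6% and 24.2% of the P2rx4 level. Of the gene's estimated counts, which are not scaled for length, they held 9.42% and 12.6%. The second quantification gave these transcripts 29.8% and 34.4% of the level, and gave the full form P2rx4-201 only 9.73% and 7.78%. The files hold no reads across the junctions, so the size of these shares rests on how each method split shared reads. P2rx4-209, annotated as a target of nonsense-mediated decay, had 13 TPM in replicate 1 but 4.91 TPM in replicate 2.

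**Figure D3:**
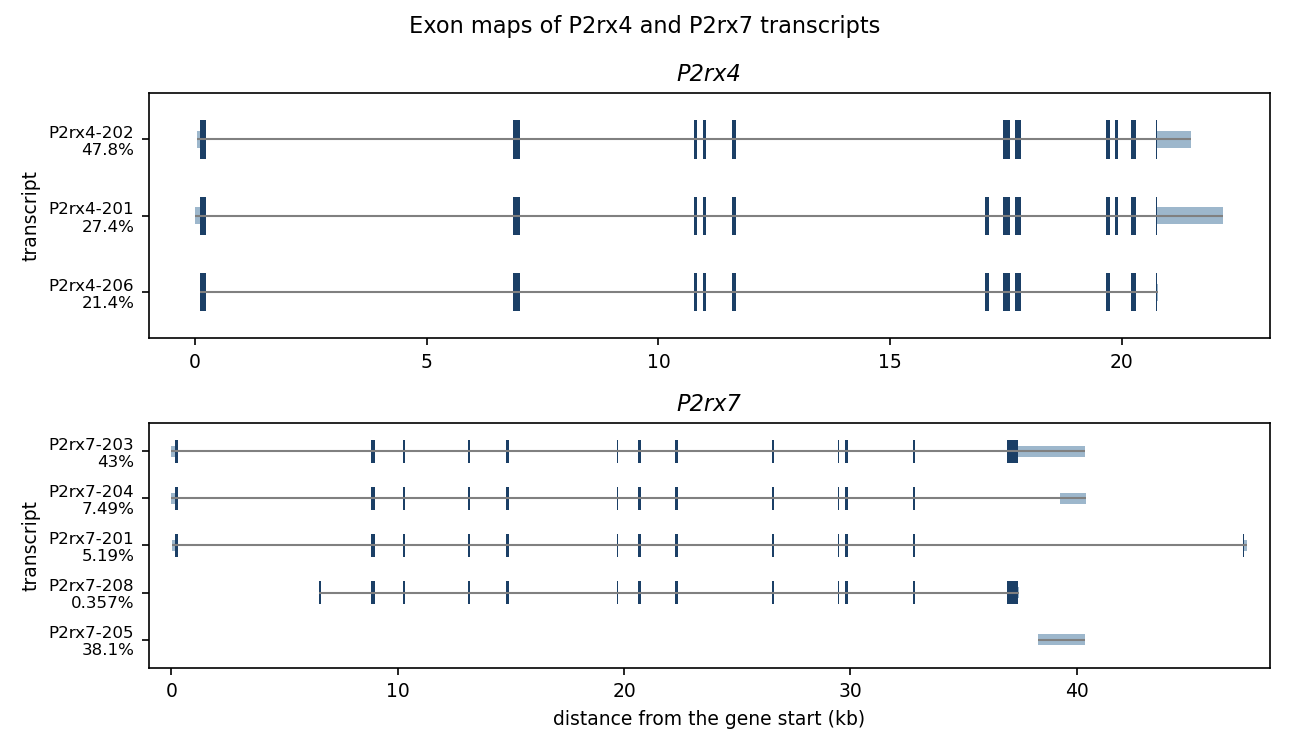
Exon maps of P2rx4 and P2rx7 transcripts against the distance from the gene start in kb, with coding parts as tall dark boxes and untranslated parts as low light boxes. The percentage under each name is its mean share of the gene's level, 47.8% for P2rx4-202 and 38.1% for P2rx7-205, which is a single box inside the last exon of P2rx7-203.

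For P2rx7, the full-length form P2rx7-203, with 595 codons, stood at 10 and 10.4 TPM, which was 45.8% and 40.3% of the gene's level. Next came P2rx7-205 at 8.59 and 9.52 TPM. It is annotated as a retained intron of 2103 nt (chromosome 5, 122682182 to 122684284) and lies wholly inside the last exon of P2rx7-203, so its reads can only be split from those of P2rx7-203 by the model. Protein-coding P2rx7 transcripts alone summed to 13.2 and 16 TPM. The second quantification gave P2rx7-205 a smaller share, 15.1% and 15.8%, and P2rx7-203 a larger one, 62.4% and 56.5%.

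Shortened forms with another end, which lack the long intracellular tail of the channel, were minor. P2rx7-204, with 431 codons, stood at 1.25 and 2.39 TPM. A shorter coding entry, P2rx7-202, with 4 exons and 153 codons, stood at 1.49 and 0.84 TPM. P2rx7-201, with 442 codons, differed most between libraries, at 0.32 TPM from 15.6 estimated counts in replicate 1 and 2.3 TPM from 102 in replicate 2. The second quantification also read it lower in replicate 1, at 0.278 TPM, than in replicate 2, at 2.52 TPM. P2rx7-208, which starts from another first exon, was near 0 in the first tables with 4.47 and 4.79 counts, and at 0.718 and 0.35 TPM in the second quantification. The coding ends of P2rx7-203, P2rx7-201 and P2rx7-204 are shown because they tell these full-length and shortened forms apart. Lower case marks the last 30 bases of the shared exon 12, and capitals the coding bases of the last exon, of which the first 60 are given for P2rx7-203. The capitals begin at chr5:122680807-122680866 for P2rx7-203, chr5:122691253-122691288 for P2rx7-201 and chr5:122683175-122683177 for P2rx7-204 on the plus strand, without the stop codon.
P2rx7-203: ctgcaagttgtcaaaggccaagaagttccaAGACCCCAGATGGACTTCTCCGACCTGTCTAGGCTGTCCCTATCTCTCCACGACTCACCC
P2rx7-201: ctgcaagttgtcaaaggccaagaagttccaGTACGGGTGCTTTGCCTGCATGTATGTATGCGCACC
P2rx7-204: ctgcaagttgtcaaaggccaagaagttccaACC

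The first coding exons of P2rx7-203 (chr5:122644074-122644198) and P2rx7-208 (chr5:122650424-122650539) also differ, and they are shown because they are what separates the 2 channel starts. Capitals mark the start codon.
P2rx7-203 first coding exon: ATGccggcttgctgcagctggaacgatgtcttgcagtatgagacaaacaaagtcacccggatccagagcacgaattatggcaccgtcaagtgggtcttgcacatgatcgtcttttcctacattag
P2rx7-208 first coding exon: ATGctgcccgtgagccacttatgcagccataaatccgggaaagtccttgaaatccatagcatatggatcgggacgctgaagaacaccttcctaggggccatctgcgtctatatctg

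P2ry6, the UDP receptor that signals through Gq proteins, came next after P2rx4 together with Entpd1, with which it traded places between quantifications (chromosome 7, 100937630 to 100974649, minus strand). It reached 76.2 TPM from 4604 counts in replicate 1 and 63.8 TPM from 3529 counts in replicate 2. P2ry6-201 held 98.8% and 98.7% of this level, so the gene was read almost wholly as 1 transcript. P2ry6 exceeded P2rx7 by 1.51 ± 0.34 in log2(TPM + 1) (SD, n = 2). Among the 7 nucleotide-binding P2Y genes it came second, with 36% and 26.3% of their summed TPM. P2ry14, a receptor for UDP-glucose, was higher at 81.7 and 103 TPM, and P2ry13, a receptor for ADP, was lower at 40.8 and 61 TPM.

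The ectonucleotidases differed widely, with Entpd1 among the higher of the 10 genes and Nt5e at or near 0. Entpd1, which hydrolyses ATP and ADP (chromosome 19, 40612366 to 40741602, plus strand), had 60.3 TPM from 5934 counts in replicate 1 and 55.7 TPM from 5349 counts in replicate 2. Nt5e, which turns AMP into adenosine (chromosome 9, 88327197 to 88372092, plus strand), had 0 counts in replicate 1 and 1 count in replicate 2. In replicate 1 the count of 0 allows up to 3 counts, which is 0.0594 CPM, a count relative to library depth. The single count of replicate 2 fell on Nt5e-203, annotated as a retained intron. The full-length transcript Nt5e-201 had 0 counts in both libraries, which allows up to 0.0221 TPM in replicate 1 and 0.0242 TPM in replicate 2. The second quantification read Nt5e at 0.116 and 0.0985 TPM, with none of it on Nt5e-201. The authors' posterior mean for the gene was higher, at 0.52 and 0.59 TPM, with credibility bounds of 0.00764 and 1.52 TPM in replicate 1. Of its transcripts, Nt5e-204, a fragment of 280 nt without a count, had the highest upper bound in replicate 1, at 1.49 TPM. Entpd1 exceeded Nt5e by 5.87 ± 0.09 in log2(TPM + 1) (SD, n = 2), a size set by the pseudocount because Nt5e was at or near 0.

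Entpd1 was read mainly from an upstream and a downstream group of annotated starts, which lie 47373 nt apart for the coding transcripts Entpd1-204 and Entpd1-201. The 3 transcripts with starts farther downstream held 0.299% of the gene's level in replicate 1 and 0% in replicate 2. Transcripts from the downstream start, with Entpd1-201 in the lead, held 69.4% of the gene's level in replicate 1 and 77.7% in replicate 2. Those from the upstream start held 30.3% and 22.3%, all of it Entpd1-204. The second quantification put the downstream group at 58.3% and 67.4%, so the group was the higher in both libraries by either method. Its leading coding transcript was not. There Entpd1-204 was above Entpd1-201 in replicate 1, at 27.5 against 24.0 TPM, and below it in replicate 2, at 20.6 against 26.5 TPM. The downstream group there included 8.45 and 5.61 TPM of the short Entpd1-208. The coding sequences differ in the first exon and have 510 codons in Entpd1-201 and 539 in Entpd1-204. Entpd1-208, a fragment of 204 nt, added 5.28 and 2.07 TPM from 3 and 1 counts. Without transcripts under 300 nt the gene stood at 55 and 53.6 TPM.

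Both Entpd1 promoters, each from 250 bases before to 50 after the start, were read from RefSeq on GRCm38.p6, and are shown because the gene's level is divided between them. The upstream one is chr19:40612116-40612415 and the downstream one chr19:40659520-40659819, both on the plus strand. Capitals mark GAGGAA, a core found in binding sites of the myeloid factor PU.1, and CCAAT, on either strand.
Entpd1 upstream promoter: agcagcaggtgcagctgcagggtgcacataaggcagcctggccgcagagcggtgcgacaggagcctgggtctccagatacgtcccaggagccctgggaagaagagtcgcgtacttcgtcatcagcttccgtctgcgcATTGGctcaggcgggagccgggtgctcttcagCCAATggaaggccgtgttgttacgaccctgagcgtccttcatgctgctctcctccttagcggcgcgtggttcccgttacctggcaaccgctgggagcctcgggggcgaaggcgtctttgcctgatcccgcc
Entpd1 downstream promoter: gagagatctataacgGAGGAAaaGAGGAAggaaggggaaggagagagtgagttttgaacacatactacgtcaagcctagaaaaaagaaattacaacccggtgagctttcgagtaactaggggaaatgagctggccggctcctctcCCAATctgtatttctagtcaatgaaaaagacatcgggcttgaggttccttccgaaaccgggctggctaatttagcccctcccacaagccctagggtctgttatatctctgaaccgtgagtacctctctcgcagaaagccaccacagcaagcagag

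The downstream promoter had 2 matches to GAGGAA and 1 to CCAAT, and the upstream one had 0 and 2. Of 32851 promoters of the same length, 28.3% held GAGGAA and 37.4% held CCAAT on either strand. The matches are letters only and show no binding. The TATA box letters TATAAA, found in 13.6% of all promoters, and the GC box letters GGGCGG, found in 35.7%, had 0 matches on both strands of either Entpd1 promoter. The AP-1 letters TGANTCA, found in 7.81%, also had 0 matches, and so did the core of the interferon-stimulated response element, found in 3.44%.

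**Figure D4:**
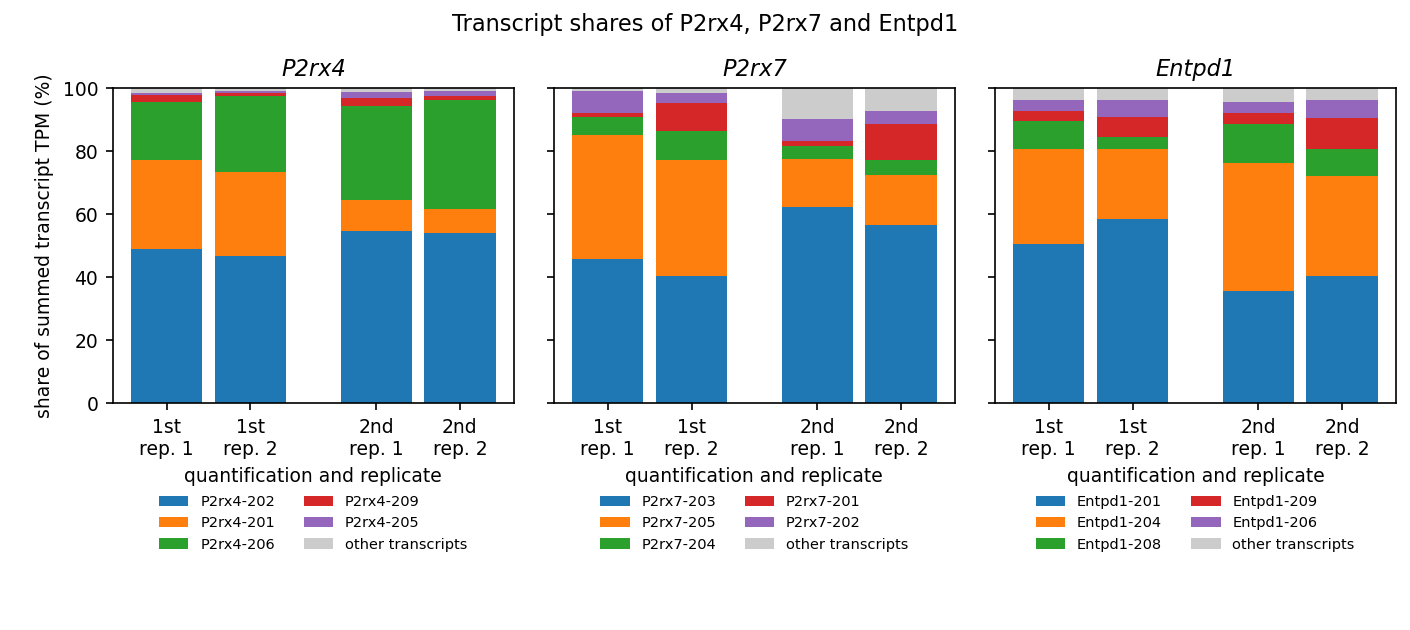
Share of each transcript in the summed transcript TPM of P2rx4, P2rx7 and Entpd1, in percent, with 1 bar for each library in the first and in the second quantification. Entpd1-201 holds 50.5% and 58.4% in the first and 35.5% and 40.5% in the second, where Entpd1-204 leads in replicate 1 with 40.7%.

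The metabolite receptors differed most between the libraries, in opposite directions. Gpr84, the receptor for medium-chain fatty acids, is coupled to inhibitory G proteins (chromosome 15, 103308235 to 103310612, minus strand). It had 66.8 TPM from 3537 counts in replicate 1 and 38.2 TPM from 1855 counts in replicate 2. Hcar2, the receptor for beta-hydroxybutyrate and niacin, is also coupled to inhibitory G proteins (chromosome 5, 123863570 to 123865499, minus strand). Its level was the higher in replicate 2, with 9.48 TPM from 573 counts in replicate 1 and 15.6 TPM from 862 counts in replicate 2. Gpr84 was above Hcar2 in both libraries, 7.04-fold in replicate 1 and 2.45-fold in replicate 2. Each gene has 1 annotated transcript. The antisense gene Gm49482 shares 681 exonic bases with Gpr84 and had no count, but whether reads were counted by strand is not given in the sources used here. Hcar1, the lactate receptor and closest relative of Hcar2 in the mouse, had no count in either library.

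Between the libraries, scaled with TMM factors, Gpr84 had a log2 ratio of 0.81 for replicate 1 over replicate 2, with an exact 95% counting interval of 0.73 to 0.89. Hcar2 had a ratio of -0.70, with an interval of -0.87 to -0.56. Of the 9 described genes that passed a filter on low counts, these 2 were 1.5-fold or more apart, as were 13.2% of all 12543 genes that passed it. At that fold 6.94% of all genes were higher in replicate 1, as Gpr84 was, and 6.23% in replicate 2, as Hcar2 was. None of the 9 genes (0) was 2-fold or more apart, a difference that 4.21% of all genes showed. Where the mean count was at least 500, as it was for Gpr84 and Hcar2, 368 of 7429 genes were 1.5-fold or more apart. Of the same 7429 genes, 76 were 2-fold or more apart. Nt5e did not pass the filter. In bulk RNA, fewer cells that carry a message and less message per cell cannot be told apart. The summed neutrophil markers, mostly S100a9 and S100a8, were also higher in replicate 1, as given above. Their part in the Gpr84 ratio was not tested.

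The other genes lay closer together. Adora2a had a log2 ratio of 0.38, P2ry6 0.27, P2rx4 0.18, Entpd1 0.03 and P2rx7 -0.16. The counting interval of Entpd1, -0.03 to 0.08, held 0. Adora3 at 0.42 and Adora2b at -0.40 rested on few counts, and their intervals of -0.16 to 1.00 and -1.06 to 0.22 also held 0. The median absolute log2 ratio was 0.38 over the 9 genes and 0.21 over all 12543. Each ratio compares these libraries only and has no replicate check.

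**Figure D5:**
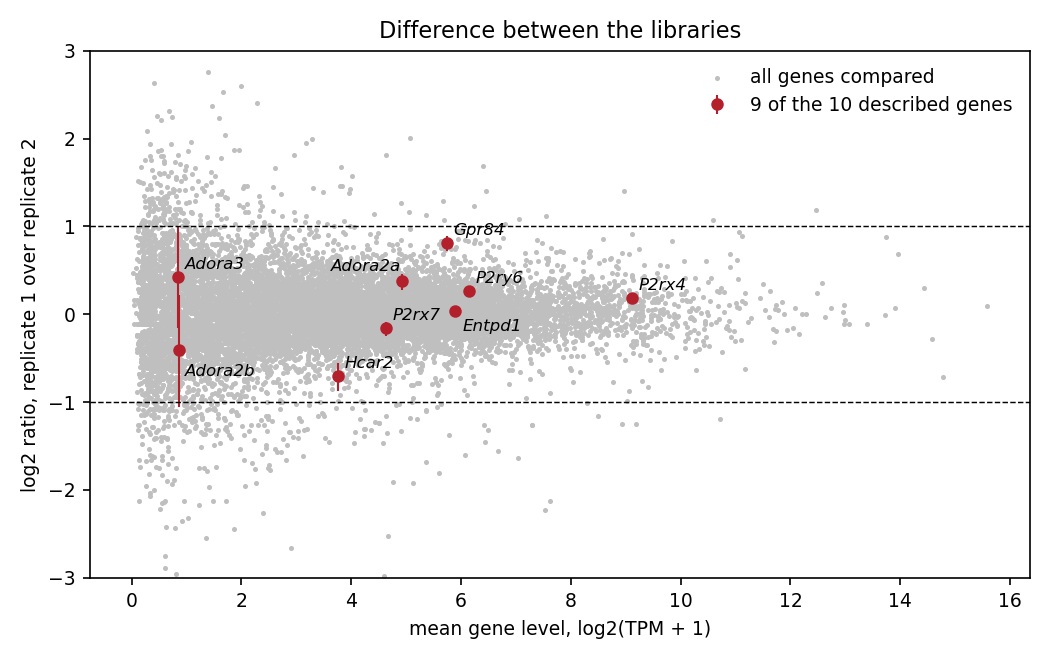
Log2 ratio of replicate 1 over replicate 2 against the mean level as log2(TPM + 1), with all 12543 genes compared in grey, 4 of them outside the drawn range, and 9 of the 10 described genes in red with exact 95% counting intervals. Dashed lines mark a 2-fold difference, and Gpr84 at 0.81 and Hcar2 at -0.70 lie nearest to them among the genes with narrow intervals.

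Around these genes, the nucleotide and adenosine machinery was read unevenly. For comparison with the lists below, 27.3% of protein-coding genes reached 10 TPM in both libraries. Of 14 other genes named as adenosine or P2 receptors, P2ry10 and P2ry10b included, 2 reached 10 TPM in both libraries, P2ry14 and P2ry13. At 1 TPM or more in both libraries were 5 of the 14, and 9 stayed under 1 TPM in both. Adora1, P2rx2 and P2ry4 had no count. Of 18 other genes linked to the handling of nucleotides, NAD or nucleosides, inside or outside the cell, 4 reached 10 TPM in both libraries. Pnp, purine nucleoside phosphorylase, led them at 787 and 919 TPM, which is uncertain because the near-identical gene Pnp2 lies beside it. Cd38, an enzyme that consumes NAD, followed at 57.4 and 43.2 TPM. Entpd3, Entpd8, Enpp3 and Alpl had no count. Alpl is alkaline phosphatase, which like Nt5e can release adenosine from AMP.

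Of 11 genes for nucleotide release and nucleoside transport, 3 reached 10 TPM in both libraries. The concentrative transporter Slc28a2 stood at 68.4 and 81.3 TPM and the lysosomal transporter Slc29a3 at 40.7 and 50.1 TPM, while Slc29a4, Slc28a1 and Slc28a3 had no count. Of 15 other metabolite and proton receptor genes, 12 were under 1 TPM in each library. The other 3 reached 1 TPM in both, as did 44.4% of protein-coding genes, and as did Gpr84 and Hcar2. The proton sensor Gpr65 was the highest, with 126 TPM in replicate 1 but 48.1 TPM in replicate 2. Gpr35 and Gpr132 followed with equal means, at 5.84 and 2.79 TPM for Gpr35 and 2.53 and 6.1 TPM for Gpr132. Of the 4 genes of this list that passed the filter, Gpr65, Gpr35 and Gpr132 were 2-fold or more apart between the libraries, with log2 ratios of 1.40, 1.01 and -1.26.

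Most of the listed signalling genes downstream of these receptors were well read. Of 22 G protein and cyclic AMP genes, 15 reached 10 TPM in both libraries (median of the list 31.9 TPM), against 27.3% of protein-coding genes. The inhibitory subunit Gnai2 led at 453 and 451 TPM and the stimulatory subunit Gnas followed at 360 and 418 TPM, while the cyclase Adcy4 was lowest at 0.03 and 0 TPM. All 9 genes of the inflammasome that P2rx7 can trigger reached 10 TPM, with a median of 182 TPM. Casp1, the caspase that processes interleukin-1 beta, stood at 408 and 346 TPM, and Ninj1, which ruptures the membrane of dying cells, at 397 and 245 TPM. The lowest was Nek7, an NLRP3 partner, at 37.7 and 37 TPM. Each of these 9 genes stood above P2rx7 itself in both libraries.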

How the data were processed

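Per the labels, 2 biological replicates of 1 group were sequenced as polyA-selected RNA. The README deposited with each sample gives mm10 and GENCODE M21. The authors deposited expected counts and TPM per gene and per transcript, made from a transcriptome alignment (the first tables), and a transcript table with estimated counts and TPM made directly from reads (the second quantification). The sources used here name no aligner or quantifier. The deposited credibility bounds of TPM, a signal per gene, belong to the posterior mean and not to the TPM beside it. Columns of per-sample values left unused for want of a sample numbered 0.

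Genes were matched by symbol and gene identifier. The 10 genes, lists and pairs were chosen with earlier results of these data known. All 10 genes were to be named, and from each other list the 2 highest and the lowest; no genes of like pattern are named, because 1 group of 2 libraries gives no pattern across conditions. Expected counts were rounded, filtered with filterByExpr and scaled with TMM in edgeR 4.0.16 (R 4.3.3), with a prior count of 0.5. DESeq2 1.42.0 gave alternative size factors. Levels are deposited TPM; log2 levels used a pseudocount of 1 TPM. Transcript shares are percent of a gene's summed TPM. Clopper-Pearson intervals and limits for 0 counts take in counting error alone, because reads were not collapsed to molecules. With 1 group no test was made, and the spread between libraries may be smaller than that between animals. Promoter entries were found for 7 of the 10 genes. Intervals were computed with SciPy 1.17.1 and tables joined with pandas 2.3.3 under Python 3.11.15.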

Additional observations from a re-analysis of the deposited data

How the results depend on the processing

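The number of genes at 10 TPM or more was 6, also with the second quantification, and 6 or 7 with either library alone or a threshold of 5 TPM. The median level was 26.2 TPM with the second quantification, 26.6 TPM with posterior means and 26.2 to 27.0 TPM with either library alone. The number with a leading transcript at 60% or more was 6, also with the second quantification or either library alone, and 5 at 80%. Of the 10 genes, 3 (Adora2b, Gpr84 and Hcar2) have 1 annotated transcript and reach any such share by construction. Nt5e, with 0 and 1 counts, was left out of this number. P2ry6 and Entpd1 changed order with the second quantification. The number of genes 2-fold apart was 0, also with DESeq2 size factors, a prior count of 5 or the second quantification, but 1 without a filter on low counts, which was Nt5e with 0 and 1 counts, and 2 at a fold of 1.5. With a pseudocount of 0.1 TPM, Adora2a exceeded Adora2b by 5.02 and Entpd1 exceeded Nt5e by 9.11 on the log2 scale, by the construction of the scale at low values. With the second quantification P2rx4 exceeded P2rx7 by 4.88, and the cause was not tested. Under it 4 of 10 gene levels moved by more than the spread between libraries, as P2rx4 did to 632 TPM and P2rx7 to 20.5 TPM, and 0 of 9 ratios left their counting intervals. Added after seeing the data, P2rx7 without P2rx7-205 stood at 14.8 TPM, against 23.8 TPM for the gene, and Entpd1 without transcripts under 300 nt at 54.3 TPM, against 58.0 TPM. No paired analysis was possible because the series holds 1 group. Depth limits Adora2b, Adora3 and Nt5e most, and transcript shares rest on reads that several transcripts share.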
